A study of Mus musculus with 10 samples.

Results

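The 10 clock genes described here are the activators Arntl and Npas2, the repressors Per1, Per2, Per3, Cry1, Nr1d1, Nr1d2 and Bhlhe41, and the output gene Dbp. They were taken by symbol from a table of 18994 genes, and all 10 are in it. All 10 also passed the filter on low counts, which left 15250 genes for testing. The choice was made with the difference between MMP9 and vehicle mice in view, so their values in that comparison are given as a description and no test of them is read.

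Cheek skin came from C57BL/6 animals that were 6 to 8 weeks old. MMP9 is a secreted gelatinase, and 1 µg of it in 5 µL was injected into the dermis of the right cheek of 5 mice. The other 5 mice received the same volume of vehicle, whose composition the labels do not state. Every cheek had been shaved 3 days earlier, the tissue was taken 4 hours after the injection, and each library is 1 mouse. The animals were kept under a normal alternation of day and night, and the labels do not state the hour of injection or of collection.

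The circadian clock is a loop of transcription factors that runs in nearly every cell, skin cells included. ARNTL (also called BMAL1) pairs with CLOCK or with its relative NPAS2, binds E-boxes, and switches on the Per and Cry genes, Nr1d1, Nr1d2, Bhlhe41 and Dbp. PER and CRY proteins then block the activator pair, and the nuclear receptors NR1D1 and NR1D2 (REV-ERB alpha and beta) shut down Arntl and Npas2 through the element they share with the ROR receptors. DBP in turn activates genes with D-boxes, Per3 among them. Over a day Arntl RNA runs roughly opposite to Dbp and Nr1d1 RNA.

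Libraries held 17121541 to 19443099 estimated counts, and levels are given as CPM, a gene's share of its library's counts after scaling by TMM factors, which correct for differences in RNA composition. The library of MMP9 replicate 4 stood apart: ribosomal protein transcripts made up 143742 CPM there, against 58866 to 69119 CPM in the other 9, and its TMM factor was 0.843. The deposited TPM values, shares that are also scaled by transcript length, do not carry that correction, and the 10 genes summed to 240 TPM in that library against 327 to 515 TPM in the others. Keratinocyte markers summed to between 11945 and 20037 CPM and skeletal muscle markers to between 17323 and 34029 CPM, so epidermis and muscle were in every library. In such whole tissue, fewer cells of a type and less RNA per cell cannot be told apart.

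Levels between genes were compared as TPM in vehicle mice. Nr1d1, at 139 ± 19.8 TPM (SD, n = 5), and Dbp, at 118 ± 19.8 TPM, were the most abundant. Nr1d2 at 40.8 ± 5.48 TPM and Per1 at 36.2 ± 12.5 TPM followed. Arntl stood at 12.3 ± 0.942 TPM, Bhlhe41 at 10.6 ± 0.923 TPM, Cry1 at 9.21 ± 1.78 TPM, Per3 at 7.56 ± 1.85 TPM and Per2 at 7.13 ± 2.30 TPM. Npas2, the tissue-restricted partner of ARNTL, was the lowest at 2.67 ± 0.315 TPM. Neighbours in this order differed by less than the sum of their SDs, except Dbp from Nr1d2, Per1 from Arntl, and Per2 from Npas2. In MMP9 mice Dbp, at 150 ± 38.1 TPM, stood above Nr1d1, at 106 ± 32.5 TPM, and Arntl, at 9.68 ± 2.65 TPM, came after Bhlhe41, Cry1 and Per3, at 13.5 ± 3.92, 12.1 ± 3.44 and 11.2 ± 4.00 TPM.

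Both activator genes stood lower in MMP9 than in vehicle mice. Arntl (Entrez gene 11865) had 19.8, 17.7, 20.1, 18.9 and 20.9 CPM in vehicle replicates 1 to 5 and 19.6, 14.5, 15.9, 15.6 and 13.1 CPM in MMP9 replicates 1 to 5. In all, 4 MMP9 libraries lay below every vehicle library, and MMP9 replicate 1 lay inside the vehicle range. On the log2 scale MMP9 stood -0.31 from vehicle, with a standard error (SE) of 0.11. Npas2 (Entrez gene 18143) had 5.84, 6.12, 7.74, 6.27 and 6.11 CPM with vehicle and 4.87, 5.91, 5.90, 3.12 and 5.14 CPM with MMP9. Its lowest value was in MMP9 replicate 4, and the groups overlapped through MMP9 replicates 2 and 3. Its log2 difference was -0.36 (SE 0.18), or -0.24 without MMP9 replicate 4.

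The repressor genes did not all lie on 1 side: Per2, Per3, Cry1, Bhlhe41 and Nr1d2 had higher means in MMP9 mice, and Per1 and Nr1d1 lower ones. Over the 7 repressor genes 5 log2 fold changes were positive and 2 negative, with a median of 0.36. The median over all 15250 tested genes was 0.01. These repressor genes were chosen in this comparison, so nothing is read from the distance between the medians.

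Per3 (Entrez gene 18628), a Period gene, had the largest difference of the 10. Vehicle libraries held 33.9, 23.7, 23.1, 35.2 and 19.7 CPM and MMP9 libraries 38.1, 55.6, 39.1, 27.4 and 41.2 CPM. In all, 4 MMP9 libraries were above all vehicle libraries, and MMP9 replicate 4 was below vehicle replicates 1 and 4. That is a log2 fold change of 0.57 (SE 0.20), or 1.49-fold. Per2 (Entrez gene 18627), which shares with Per1 the main part in delaying the loop, had 30.2, 22.8, 13.8, 34.8 and 19.2 CPM with vehicle and 27.2, 42.0, 37.4, 21.1 and 27.2 CPM with MMP9. Its groups overlapped widely, with MMP9 replicates 2 and 3 above all vehicle libraries. The log2 fold change of 0.36 (SE 0.25) went to 0.21 without vehicle replicate 3, the lowest library.

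Per1 (Entrez gene 18626) lay on the other side from Per2 and Per3. It is also an acute response gene, induced by glucocorticoids and by cAMP signalling. Vehicle libraries held 163, 71.6, 80.3, 94.2 and 99.6 CPM and MMP9 libraries 76.7, 138, 82.2, 44.5 and 63.9 CPM. A single high library in each group, vehicle replicate 1 and MMP9 replicate 2, set the spread. The log2 fold change of -0.33 (SE 0.30) was -0.09 without the first and -0.61 without the second. Among 14 glucocorticoid-induced genes 11 were lower in MMP9 and 0 passed the test, with Zbtb16, a classical target of the receptor, at 48.6 ± 27.1 CPM with vehicle and 22.4 ± 1.83 CPM with MMP9 (edgeR adjusted p = 0.981). Their summed level was 3214 to 4685 CPM with vehicle and 2903 to 6206 CPM with MMP9. Of 13 immediate early genes 10 were lower and 0 passed, with sums of 786 to 1114 CPM and 712 to 1087 CPM. The part of either set in the Per1 values was not tested.

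Cry1 (Entrez gene 12952), a cryptochrome and the strongest repressor of the activator pair, had 20.0, 12.5, 15, 20.3 and 15.1 CPM with vehicle and 22.2, 20.0, 29.0, 21.3 and 18.8 CPM with MMP9. A total of 3 MMP9 libraries exceeded every vehicle library, and the log2 fold change was 0.43 (SE 0.16). Bhlhe41 (Entrez gene 79362), which competes with the activators for E-boxes, had 36.0, 37.3, 36.0, 44.5 and 37.3 CPM with vehicle and 45.4, 51.2, 60.0, 38.3 and 52.6 CPM with MMP9. In all, 4 MMP9 libraries were above the vehicle range, and MMP9 replicate 4 was inside it. This gave a log2 fold change of 0.37 (SE 0.12).

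The REV-ERB genes split. Nr1d1 (Entrez gene 217166) had 206, 275, 243, 227 and 192 CPM with vehicle and 181, 210, 157, 127 and 200 CPM with MMP9. MMP9 replicates 1, 3 and 4 lay below all vehicle libraries, and the log2 fold change was -0.38 (SE 0.15), or -0.29 without MMP9 replicate 4. Nr1d2 (Entrez gene 353187) had 137, 119, 106, 114 and 92.1 CPM with vehicle and 119, 137, 112, 122 and 123 CPM with MMP9, so that every MMP9 value fell inside the vehicle range. Its log2 fold change was 0.11 (SE 0.11), with values of 0.04 without vehicle replicate 5 and 0.18 without vehicle replicate 1.

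Dbp (Entrez gene 13170), the PAR bZIP activator that carries the rhythm to D-box genes, had 124, 137, 105, 129 and 85.6 CPM with vehicle and 113, 193, 122, 174 and 167 CPM with MMP9. MMP9 replicates 2, 4 and 5 were above every vehicle library, and replicates 1 and 3 were within the vehicle range. For Dbp the log2 fold change was 0.41 (SE 0.18).

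**Figure D1:**
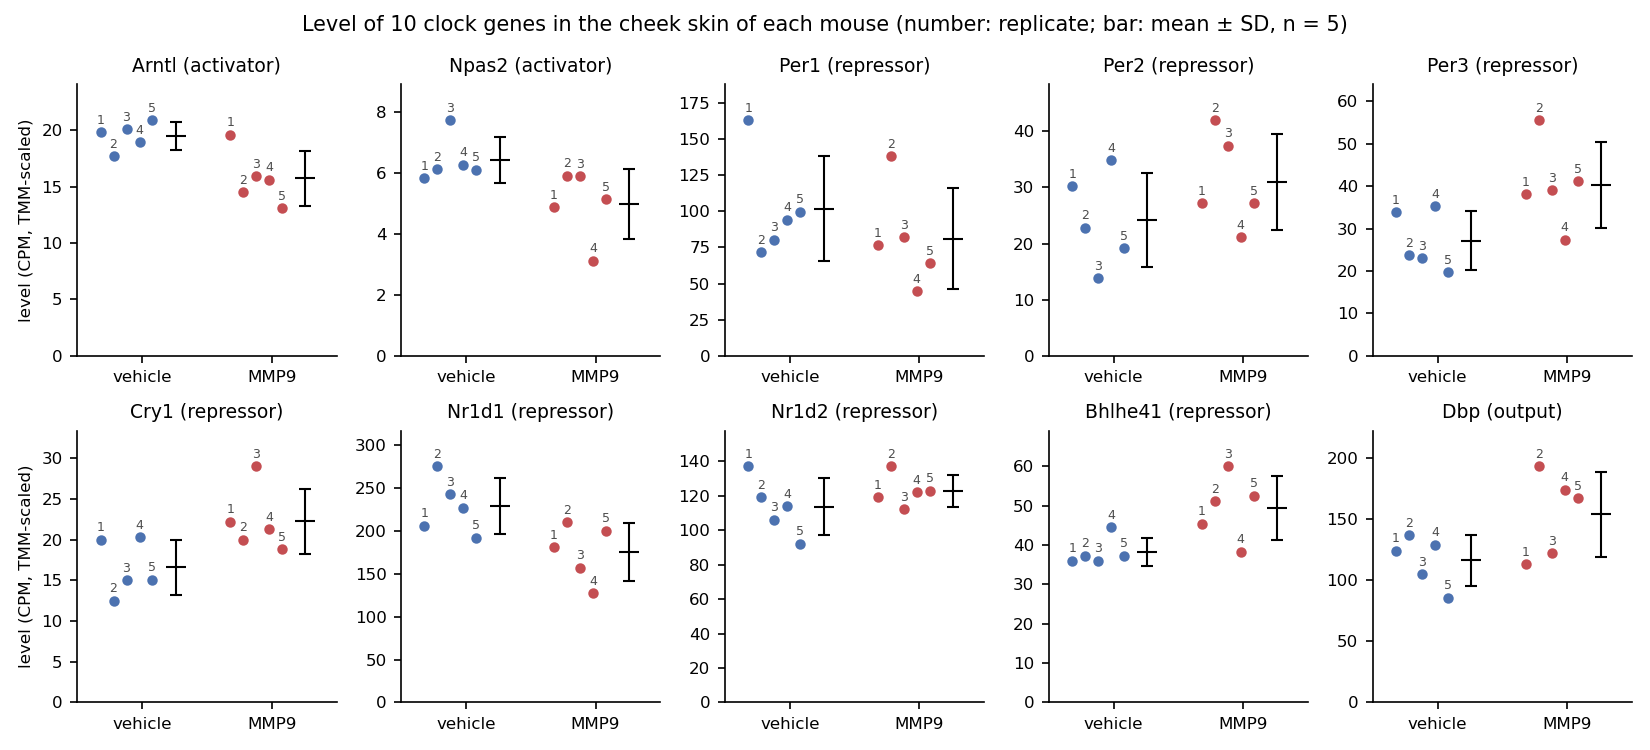
Level of each of the 10 clock genes in every mouse, in TMM-scaled CPM on axes that start at 0, with 5 vehicle mice in blue, 5 MMP9 mice in red, replicate numbers beside the points, and the mean ± SD as a bar. A total of 4 MMP9 points lie below all vehicle points for Arntl and above them for Per3 and Bhlhe41, and for each of the 10 genes at least 1 MMP9 point overlaps the vehicle range.

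With edgeR's quasi-likelihood test, 0 of the 10 had a Benjamini-Hochberg adjusted p under 0.05, and so did 0 of all 15250 genes (0%). Since that comparison chose the 10, nothing is read from their count. The unadjusted p was under 0.05 for 487 genes in edgeR (3.19%), 565 in DESeq2 and 462 in limma-voom. DESeq2 called 1 gene, the lipase-related Pnliprp2, and limma-voom 0. The CPM ranges of the groups were apart for 0 of the 10 genes, against 0.564% of all tested genes.

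Markers of cell types were also set side by side between the groups. With edgeR 0 of them passed, and the ranges of the sums overlapped in every list. Hair shaft and inner root sheath markers were lower with MMP9 in 12 of 12 (median log2 fold change -1.29), with sums of 17 to 6969 CPM for vehicle and 21 to 2401 CPM for MMP9. Fibroblast markers were higher in 8 of 8 (median 0.17), with sums of 6272 to 11808 CPM and 7267 to 15120 CPM. Leukocyte markers were higher in 7 of 11 (median 0.06), with sums of 319 to 1403 CPM and 631 to 1447 CPM. Of the 11, 2 had groups that did not overlap, beside 0.564% of all tested genes. These were the T cell receptor complex genes Cd247, at 14.3 ± 1.43 and 19.3 ± 2.59 CPM, and Cd3g, at 20.7 ± 2.40 and 28.4 ± 6.93 CPM (SD, n = 5). The lists were chosen with earlier results of these data known, so nothing is read from that count. Adipocyte markers were higher in 5 of 8 (median 0.09), muscle markers in 6 of 12 (median 0.01) and keratinocyte markers in 4 of 9 (median 0). The part of these cell types in the clock gene differences was not tested.

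The 5′ flanks of these genes were searched for the letters of the clock's own elements. The promoter table is RefSeq's for build GRCm38.p6, an earlier build than the GRCm39 named in the submitters' processing notes, and it gives 250 bases before and 50 after each start. It matched 9 of the 10 genes with 11 windows, and Per2 had no entry. Both strands were searched for CACGTG, an E-box that reads the same on both, for TTATGTAA and TTACGTAA, D-boxes, and for TAGGTCA, the core of the element shared by ROR and REV-ERB. Of 32851 windows, 7.15% held CACGTG, 0.938% TTATGTAA, 0.119% TTACGTAA and 2.61% TAGGTCA.

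The sequences shown are those of the repressor genes highest in MMP9 relative to vehicle (Per3, Cry1 and Bhlhe41) and of Per1, which was lower, each 5′ to 3′ on the gene's strand over the 250 bases before its start, with the matched letters in capitals. Per3 lies on the minus strand at chr4:151044666-151044915, Cry1 on the minus strand at chr10:85185055-85185304, Bhlhe41 on the minus strand at chr6:145865421-145865670, and the upstream start of Per1 on the plus strand at chr11:69098699-69098948.
Per3: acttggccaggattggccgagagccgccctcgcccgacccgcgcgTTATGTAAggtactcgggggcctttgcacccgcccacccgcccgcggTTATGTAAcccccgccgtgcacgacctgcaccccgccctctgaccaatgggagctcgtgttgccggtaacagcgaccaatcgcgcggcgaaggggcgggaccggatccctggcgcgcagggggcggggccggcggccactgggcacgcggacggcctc
Cry1: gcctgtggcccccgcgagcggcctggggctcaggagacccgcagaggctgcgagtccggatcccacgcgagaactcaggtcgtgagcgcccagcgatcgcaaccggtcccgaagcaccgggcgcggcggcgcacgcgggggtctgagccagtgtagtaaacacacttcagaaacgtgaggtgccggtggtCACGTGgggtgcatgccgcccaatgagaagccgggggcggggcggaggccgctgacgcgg
Bhlhe41: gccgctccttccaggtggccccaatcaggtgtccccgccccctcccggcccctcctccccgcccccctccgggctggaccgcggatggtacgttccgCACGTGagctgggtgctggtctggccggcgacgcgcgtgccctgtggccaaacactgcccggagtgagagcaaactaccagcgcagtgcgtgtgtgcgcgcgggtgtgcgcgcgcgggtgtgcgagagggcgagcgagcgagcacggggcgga
Per1: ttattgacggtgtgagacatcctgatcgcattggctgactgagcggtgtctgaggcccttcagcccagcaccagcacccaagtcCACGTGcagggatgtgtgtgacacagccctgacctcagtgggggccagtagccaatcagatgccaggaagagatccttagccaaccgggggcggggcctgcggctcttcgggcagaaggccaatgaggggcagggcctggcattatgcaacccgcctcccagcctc

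Counted back from the start, with -1 the last base before it, Per3 held TTATGTAA at -205 to -198 and again at -158 to -151, and no CACGTG. Cry1 held CACGTG at -60 to -55, Bhlhe41 at -153 to -148 and Per1 at -166 to -161. The E-box letters were thus in a window of Per1, lower in MMP9 mice, and in those of Cry1 and Bhlhe41, which were higher. They were absent from the windows of Nr1d1, Arntl and Npas2, also lower, and of Per3, Dbp and Nr1d2, also higher. Whether these letters go with the direction of change was not tested. The second window of Arntl held TAGGTCA at bases 31 to 37 after the start, on the plus strand at chr7:113207529-113207558, shown as 30 bases with the core in capitals.
Arntl: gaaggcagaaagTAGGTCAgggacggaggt

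None of these letters was in the windows of Npas2, Dbp, Nr1d1 or Nr1d2, in the first of Arntl or in the second of Per1. A match is only a run of letters, and these libraries do not measure binding.

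A list of 25 further clock genes was in the table in full. Fbxl21 fell below the filter, and of the 24 tested, 10 had positive and 14 negative log2 fold changes, with a median of -0.05. With edgeR 0 of 24 passed.

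On the activator side 3 of 5 log2 fold changes were positive, 2 negative and 0 passed, with a median of 0.06. Clock, the main partner of ARNTL, had 45, 49.9, 43.4, 44.7 and 52.2 CPM with vehicle and 50.6, 38.5, 41.3, 36.4 and 39.6 CPM with MMP9. As with Arntl, MMP9 replicates 2 to 5 lay below every vehicle library and replicate 1 did not. Clock stood -0.19 from vehicle on the log2 scale (SE 0.10, edgeR adjusted p = 0.981).

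Among 6 further repressor genes, 3 log2 fold changes were positive, 3 negative and 0 passed, with a median of 0.01. Cry2, the second cryptochrome, averaged 46.7 ± 5.99 CPM (SD, n = 5) with vehicle and 47.7 ± 7.03 CPM with MMP9. Its change on the log2 scale was 0.03 (edgeR adjusted p = 0.99), with a 95% interval from -0.24 to 0.30 and a sign that changed over the alternatives. Of 7 output genes 3 were positive and 0 passed. Hlf, a PAR bZIP relative of Dbp, averaged 39.0 ± 8.11 and 46.2 ± 6.02 CPM, which is 0.24 on the log2 scale (SE 0.15, edgeR adjusted p = 0.981). Of 6 genes of clock protein turnover 1 was positive and 0 passed. Csnk1e, a kinase that marks PER for destruction, averaged 74.9 ± 4.17 and 67.1 ± 5.37 CPM, which is -0.16 on the log2 scale (SE 0.08, edgeR adjusted p = 0.981).

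**Figure D2:**
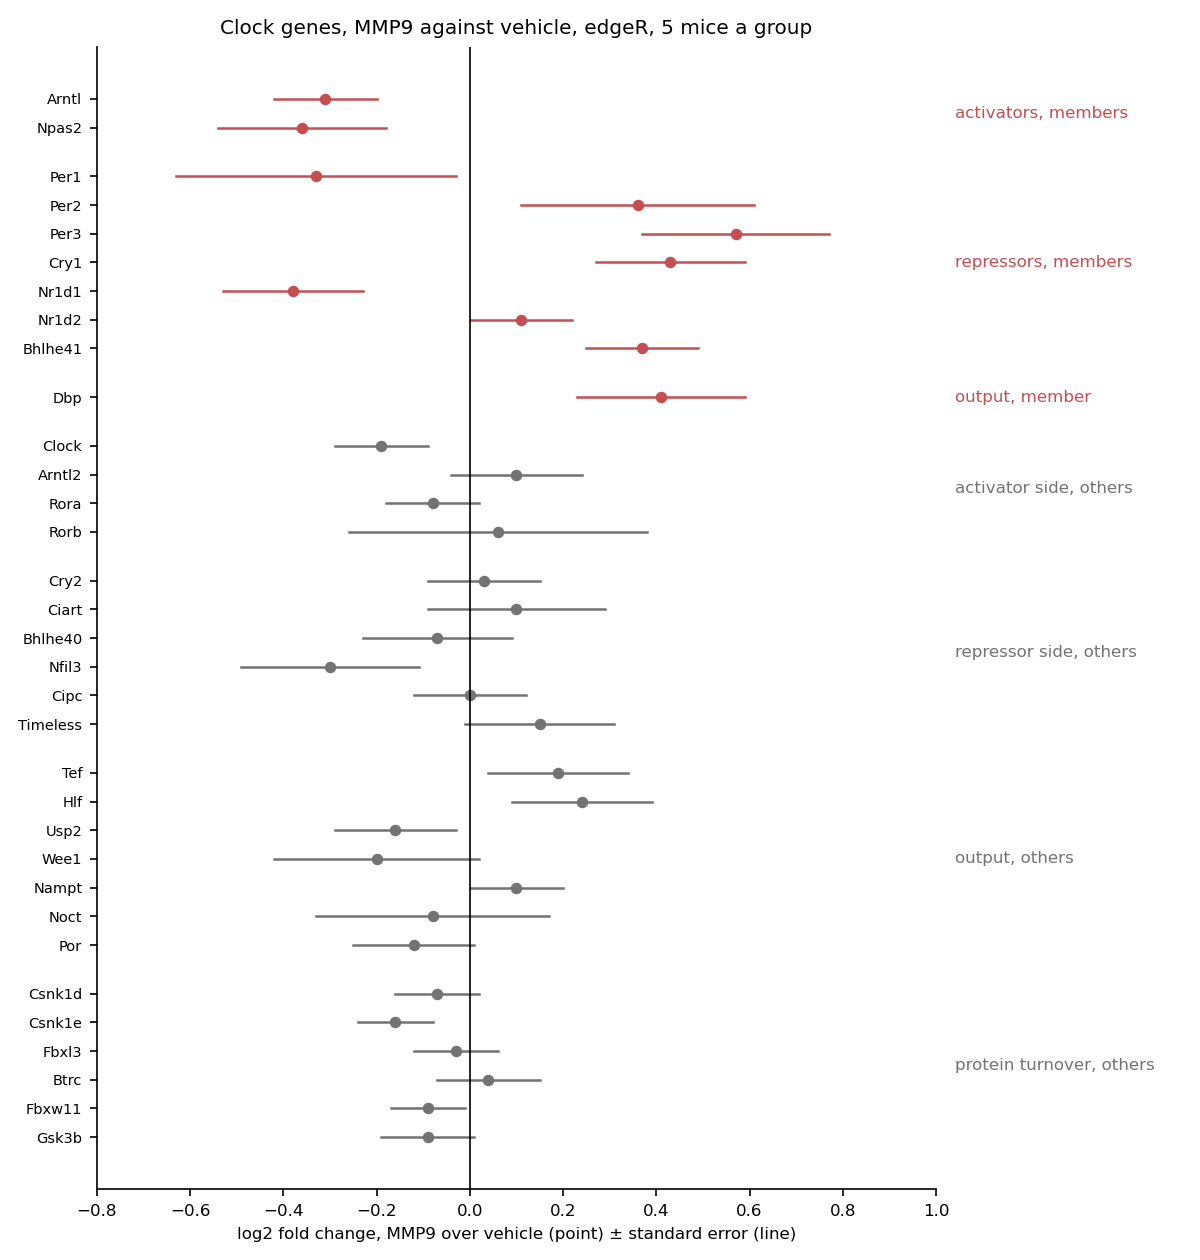
Log2 fold change of MMP9 over vehicle for the 10 members (red) and 23 of the 24 other tested clock genes (grey), as a point with its SE as a line, grouped by role. Arntl and Npas2 lie at -0.31 and -0.36, the repressors run from -0.38 for Nr1d1 to 0.57 for Per3, and 0 of the 33 shown passed in edgeR.

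The ratio of 2 genes within a library needs no scaling between libraries, so it does not use the factor of MMP9 replicate 4. These ratios were added after the data were seen. Of the 45 pairs of members, 7 pairs had ratios that did not overlap between the groups, or 15.6%, and the share over all 116273625 pairs of tested genes was 0.569%. Since the 10 genes were chosen in this comparison, nothing is read from that count.

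In each of the 7 pairs 1 gene was Per3, Cry1, Bhlhe41 or Dbp and the other Arntl, Npas2, Nr1d1 or Per1. The former were higher and the latter lower in MMP9 mice, in the comparison that chose them, so nothing is read from this split. The ratio of Nr1d1 to Per3 in TPM was 13.2, 25.2, 23.1, 14.0 and 21.3 in vehicle replicates 1 to 5 and 10.3, 8.26, 8.75, 10.1 and 10.6 in MMP9 replicates 1 to 5. Vehicle mice thus held on average 19.3 ± 5.44 Nr1d1 transcripts for each Per3 transcript and MMP9 mice 9.61 ± 1.04 (SD, n = 5). Dbp stood to Nr1d1 as 0.850 ± 0.126 in vehicle and 1.52 ± 0.466 in MMP9, with 1.01 as the highest vehicle and 1.05 as the lowest MMP9 value. Arntl stood to Cry1 as 1.38 ± 0.287 and 0.812 ± 0.137, and the closest values were 1.05 in vehicle replicate 4 and 1.01 in MMP9 replicate 1. Per1 stood to Per3 as 4.86 ± 1.38 and 2.49 ± 0.483, without overlap.

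**Figure D3:**
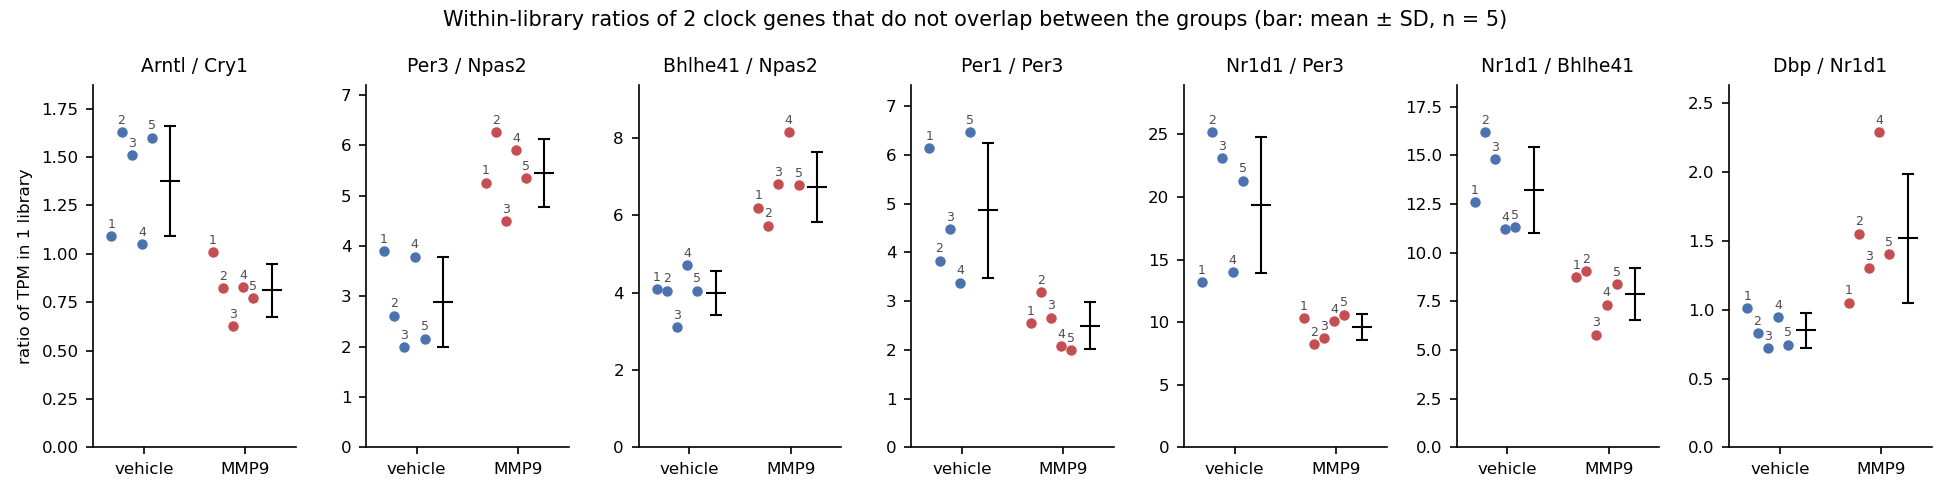
Ratio of TPM of 2 clock genes within each library for the 7 pairs whose values do not overlap, with 5 vehicle mice in blue, 5 MMP9 mice in red, replicate numbers, and mean ± SD as a bar on axes that start at 0. The MMP9 points of Nr1d1 over Per3 lie between 8.26 and 10.6 and the vehicle points between 13.2 and 25.2.

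Mice given the same injection also differed among themselves. Whether the choice of the 10 genes favoured a small or large spread was not tested. Per1 and Per2 varied most, with coefficients of variation of 35.5% and 34.9% in vehicle and 43.3% and 27.5% in MMP9. Arntl varied least in vehicle, at 6.27%, and reached 15.5% in MMP9, and Nr1d2 varied by 14.7% and 7.39%. Over the 11472 tested genes whose mean lay between 5.70 and 202 CPM, as those of the 10 did, the median coefficient was 10.9% in vehicle and 16.0% in MMP9.

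Which genes went up and down together from mouse to mouse was asked after removing the group means. Per3 was taken as the reference after its fellow Period genes were seen to deviate with it, in an edgeR fit over 15249 genes with treatment and the Per3 level as terms. The slope is the log2 change of a gene for each log2 unit of Per3. Per2 had a slope of 1.06 with an SE of 0.23 and Per1 of 1.13 with 0.31. Among clock genes outside the 10, Tef, a PAR bZIP relative of Dbp, had a slope of 0.62 (SE 0.13), Cry2 of 0.48 (0.12), Usp2, a deubiquitinase gene and clock output, of 0.53 (0.14), and Hlf of 0.53 (0.17).

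Ordered by p among the 15249 genes, Tef stood at rank 13, Per2 at 20, Cry2 at 39, Usp2 at 52, Per1 at 76 and Hlf at 257. With edgeR 0 of 15249 genes passed (0%), and the edgeR adjusted p of all these 6 was 0.572. Over the 18 alternatives these ranks ran from 1 to 371 for Tef, 5 to 643 for Per2, 21 to 775 for Cry2 and 14 to 567 for Usp2. With the replicate block they were 371, 643, 775 and 278. Without vehicle replicate 5 Tef stood at 100 and Usp2 at 567, and without MMP9 replicate 4 Per2 stood at 97 and Cry2 at 301. Per1 and Per2 prompted the fit, so nothing is read from their slopes. Of the 24 clock genes outside the 10, 6 had an unadjusted edgeR p under 0.05 (Tef, Cry2, Usp2, Hlf, Btrc and Wee1), beside 8.57% of all genes. The share of all genes ran from 4.84% without MMP9 replicate 2 to 38.2% in limma on log2(TPM + 0.1). Per3 was picked as the reference in these same mice, so the count of 6 is a description only. Over 18 alternatives the slope of Tef ran from 0.59 to 0.80 and its adjusted p from 0.000451 to 0.85, and that of Per2 from 0.95 to 1.17 with adjusted p from 0.0367 to 0.85. DESeq2 called Tef and Per2 among 26 genes, and limma-voom called 0 with 1248 under an unadjusted p of 0.05.

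The mice that carried this pattern were the same for several genes. The Per3 level stood above its group mean by 0.36, 0.41 and 0.50 on the log2 scale in vehicle replicates 1 and 4 and MMP9 replicate 2, and Tef by 0.20, 0.31 and 0.31 there. Per3 was lowest in vehicle replicate 5 and MMP9 replicate 4, at -0.42 and -0.52, where Tef stood at -0.30 and -0.25. Dbp did not keep to this order: in MMP9 replicate 4 it was 0.21 above its group mean, and its slope on Per3 was 0.32 (SE 0.25, edgeR adjusted p = 0.675). Skeletal muscle markers had positive slopes on Per3 in 11 of 12 and hair shaft markers negative slopes in 12 of 12. Keratinocyte markers were negative in 8 of 9 and glucocorticoid-induced genes positive in 10 of 14, and the median slope over all tested genes was 0. Genes of 1 list can move together, so these counts are a description only. Muscle markers summed to 33500, 18906, 26132, 34029 and 17507 CPM in vehicle replicates 1 to 5. The Per3 deviations there were 0.36, -0.16, -0.19, 0.41 and -0.42. In MMP9 replicates 1 to 5 the sums were 17323, 23942, 20030, 33586 and 32765 CPM. The Per3 deviations in these were -0.04, 0.50, -0.01, -0.52 and 0.07. MMP9 replicate 4 is also the library with 143742 CPM of ribosomal protein transcripts. The part of tissue composition in the slopes was not tested.

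Arntl gave another picture. It moved little within groups, from -0.25 in MMP9 replicate 5 to 0.33 in MMP9 replicate 1. Across vehicle mice its deviations ran from -0.13 to 0.11, on 325 to 418 estimated counts a library. The share of counting noise in these deviations was not tested. On the Arntl level 0 of 15249 genes passed (0%) in edgeR, 0 in DESeq2 and 0 in limma-voom. Genes with an unadjusted p under 0.05 numbered 411 (2.7%), 554 and 445. Dbp had the smallest p of the clock genes, at rank 70 of 15249, with a slope of -1.43 (SE 0.46, edgeR adjusted p = 1). Its slope was negative under all 18 alternatives, from -1.89 to -0.18, with adjusted p from 0.5 to 1.

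The deviations of Dbp and Arntl from their group means had a Pearson r of -0.76 over 10 mice (exact permutation over all pairings within groups, two-sided p = 0.0113, and 0.102 after Benjamini-Hochberg adjustment over 9 relations). Spearman's rho was -0.83 (exact permutation p = 0.00938, adjusted 0.0844), and without MMP9 replicates 1 and 5, the farthest from the median of Arntl, r was -0.84. On log2(TPM + 1), which lacks the composition correction and is also scaled by transcript length, r was -0.18. For the other 8 members r lay between -0.39 for Nr1d1 and 0.33 for Cry1, with exact permutation p adjusted over the 9 relations of 0.735 to 0.895. Without the same 2 mice, r was -0.76 for Nr1d1 and -0.61 for Nr1d2. On log2(TPM + 1), r turned positive for Npas2, Per2, Per3, Nr1d1, Nr1d2 and Bhlhe41, at 0.39 to 0.68.

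**Figure D4:**
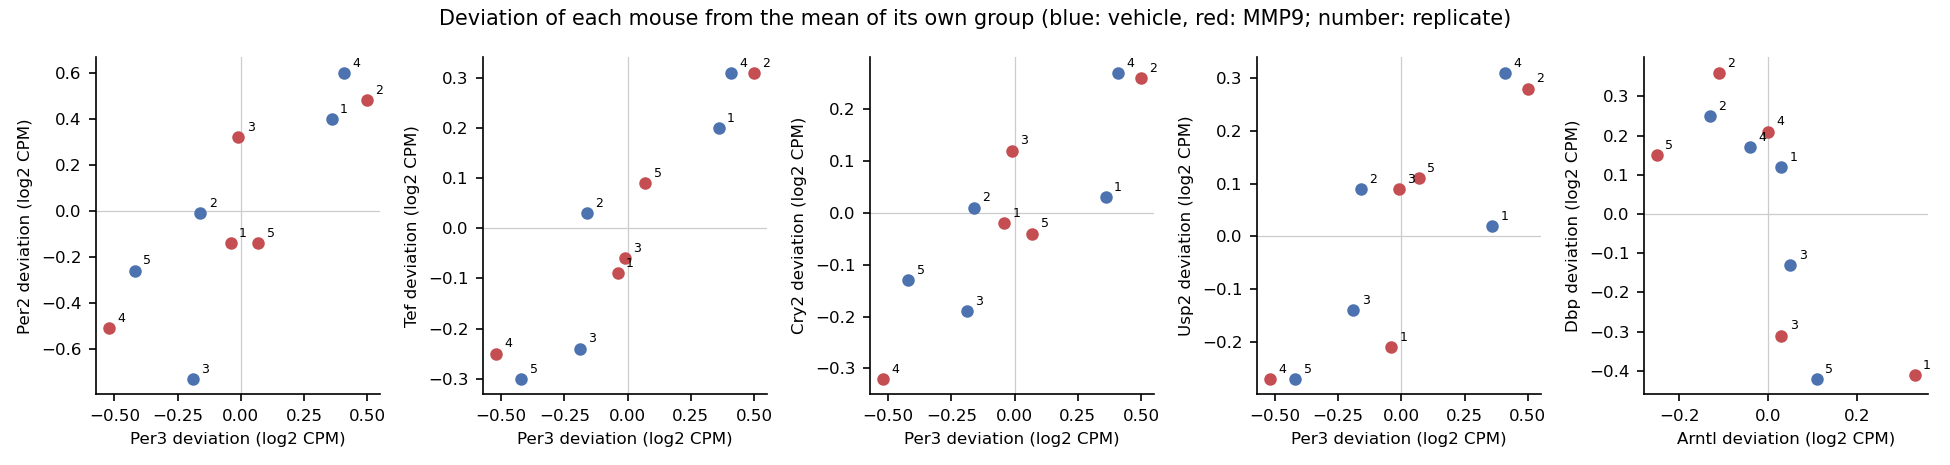
Deviation of each mouse from the mean of its own group on the log2 CPM scale, for Per2, Tef, Cry2 and Usp2 against Per3 and for Dbp against Arntl, with vehicle mice in blue, MMP9 mice in red and replicate numbers beside the points. Vehicle replicate 4 and MMP9 replicate 2 lie at the upper right of the first 4 panels, and Dbp falls from left to right against Arntl.

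Of the clock genes outside the 10, the smallest p on the Arntl level belonged to Noct with a slope of 1.66 (SE 0.78), Usp2 with -0.86 (0.40), Ciart, a repressor, with -1.15 (0.58), and Clock with 0.57 (0.30). Fbxw11 and Timeless had 0.40 (0.26) and 0.73 (0.53). The edgeR adjusted p was 1 for all 6. Over all 15249 genes, the 6 with the smallest p on Arntl were taken in each direction. Those with positive slopes, of 1.29 to 3.14, were Thbs1, Gm52416, Dsg3, Tnfrsf11b, Sele and Duoxa2, at ranks 6 to 25 by p. Those with negative slopes, of -3.76 to -1.26, were Gm572, 2310061I04Rik, Plpp7, Kcnj12, Katnal2 and Gm40525, at ranks 1 to 7. All had an edgeR adjusted p of 1. Likeness here is the p of the slope over 10 mice, and none of these 12 is a gene of the clock lists. Skeletal muscle markers had negative slopes on Arntl in 12 of 12 (median -1.35) and adipocyte markers in 8 of 8 (median -1.62, sums of 1109 to 3206 and 1230 to 3991 CPM), while keratinocyte markers had positive ones in 9 of 9 (median 0.44). Fibroblast markers were negative in 7 of 8 (median -0.53) and glucocorticoid-induced genes in 9 of 14 (median -0.11). Immediate early genes were positive in 12 of 13 (median 0.68), hair shaft and inner root sheath markers in 8 of 12 (median 2.61), and leukocyte markers in 5 of 11 (median -0.03). Over all tested genes the median slope was -0.02. Genes of 1 list can move together, so these counts are a description only. The part of muscle, fat and epidermis in the relation of Dbp to Arntl was not tested.

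Whether the relation to Arntl differed between MMP9 and vehicle mice was tested with a product term. With edgeR 0 of 15249 genes passed (0%), with 362 under an unadjusted p of 0.05 (2.37%). DESeq2 called 3, none of them a clock gene (Nat8l, Angpt4 and Lrrc15, with 474 under 0.05), and limma-voom 0 (347). For Dbp the slope was higher by 1.42 in MMP9 mice, with a 95% interval from -1.44 to 4.29 and an edgeR adjusted p of 1, and the interval holds differences of either sign.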

How the data were processed

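The mRNA of cheek skin was sequenced from 10 mice, 5 a group, as single-end reads of 50 bases on a DNBSeq instrument, per the labels' protocols. Per the file headers, the authors deposited an estimated count of reads, FPKM and TPM per gene for each library. The estimated counts were made from reads aligned by the authors. HISAT and build GRCm39 are named in the submitters' processing notes, and the counting program, annotation and strand setting are not stated in those notes. The deposited TPM values are scaled by transcript length and by their own sum. FPKM and the authors' group means were not used.

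The estimated counts, of which 66.2% of those above 0 were not whole, were rounded and fitted with edgeR 4.0.16 in R 4.3.3: TMM factors, filterByExpr, the quasi-likelihood F test and Benjamini-Hochberg adjustment over all tested genes at 0.05. The kept genes held 99.95% of the counts. Standard errors come from the F statistic. The level of Arntl or Per3 in covariate fits is log2 CPM (prior count 2) centred within groups. The scripts were tested on simulated data. Alternatives were RLE factors, no filter, DESeq2 1.42.0, a filter at a mean of 1 CPM, limma-voom (limma 3.58.1), limma on log2(TPM + 1) and log2(TPM + 0.1), the mouse number as a block, and leaving out each mouse. Even the 2 most alike libraries had a chi-square per gene of 17.8, far above sampling noise, so each library was counted as its own replicate.

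The members and the lists were chosen with earlier results of these data known. Named are all members, Clock and Cry2, the other clock genes with the smallest p (up to 4 for treatment and 6 on Arntl), the 6 genes with the smallest p on Arntl in each direction, and up to 2 genes of a marker list described. Of these, 1 gene is not reported here. The Per3 fit, its named genes and the ratios were added after the data were seen. Since strand is not stated, reads of overlapping or antisense neighbours cannot be told apart.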

Additional observations from a re-analysis of the deposited data

Results flagged for a closer look

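In each group of 5, the highest and lowest library were compared with the nearest of the others, as the gap over the whole range against Dixon's critical value of 0.71. Of 20 groups, 2 exceeded it, and chance alone gives about 1 in 20. Npas2 stood at 7.74 CPM in vehicle replicate 3, against 5.84 to 6.27 CPM in the other vehicle mice (gap over range 0.772). Bhlhe41 stood at 44.5 CPM in vehicle replicate 4, against 36.0 to 37.3 CPM in the others (0.839).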

How the results depend on the processing

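Of the 18 alternatives, 17 left the count of genes called between MMP9 and vehicle at 0, and DESeq2 gave 1. Leaving out each mouse gave 0 throughout. The 10 members kept their sign under all 18, a direction the choice of genes could fix. For the Arntl level, 17 alternatives gave 0 and limma on log2(TPM + 0.1) gave 1452 of 15249 genes. Of the 9 members and 24 other clock genes in that fit, 4 were called (Clock, Csnk1d, Fbxw11 and Gsk3b). The limma adjusted p of Clock there was 0.0499, just under the threshold of 0.05. TPM carries no composition correction, and whether clock genes were called more often than other genes was not tested. Nothing is read about clock genes from these calls. For the slope by treatment, DESeq2 gave 3, the replicate block 13, and leaving out a mouse 0 to 1 (Fam177a2 without vehicle replicate 2). The slope differences were -15.25 to 6.23 for the DESeq2 calls, -106.76 to -68.86 for the block calls and -109.4 for Fam177a2. Block calls and Fam177a2 are not read as changes, given slopes of that size. For the Per3 level, DESeq2 gave 26, limma on log2(TPM + 1) 1 and on log2(TPM + 0.1) 1 (Tef both times), and the replicate block 1 (2610528A11Rik). Leaving out a mouse gave 0 there.

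Mice of the 2 groups carry the same numbers, and the labels state no pairing. Same-numbered mice correlated at -0.24, -0.05, 0.46, 0.14 and 0.20 in their deviations, and 2 of 5 correlated best with their own number. So few correlations cannot settle whether a shared number marks a pair. With the block, 0 genes were called between MMP9 and vehicle and 0 on the Arntl level, and the slopes on Arntl of Per1 and Cry1 turned to -0.57 and -0.27.

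The other values that changed sign are these, and the cause was not tested. On log2(TPM + 1) and log2(TPM + 0.1) the log2 fold change of Cry2 was -0.04 in both. There the slopes on Arntl were 0.75 and 1.09 for Npas2, 0.75 and 0.79 for Per2, 0.76 and 0.79 for Per3, 0.85 and 0.80 for Nr1d1, 0.44 and 0.42 for Nr1d2, 0.79 and 0.79 for Bhlhe41, 0.43 and 0.43 for Usp2, 0.52 and 0.53 for Ciart, and 0.05 and 0.15 for Gm40525. The slope of Arntl on Per3 was 0.26 in both. With RLE factors the Per1 slope on Arntl was -0.07. Pearson r with Arntl on log2(TPM + 1) was 0.68 for Npas2, 0.39 for Per2, 0.44 for Per3, 0.54 for Nr1d1, 0.46 for Nr1d2 and 0.61 for Bhlhe41, and for Per1 it was -0.05 without the 2 mice farthest from the median. Leaving out a mouse, the range was -0.04 to 0.10 for the Cry2 log2 fold change, -0.21 to 0.03 for the Npas2 and -0.57 to 0.79 for the Per1 slope on Arntl, -0.02 to 0.77 for Clock, -0.03 to 0.48 for Npas2 on Per3, and -0.15 to 0.03 and -0.05 to 0.32 for r of Npas2 and Per1 with Arntl.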
